A study of Homo sapiens with 10 samples.

Results

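Open chromatin was compared between DLD-1 cells given auxin for 12 h to degrade GATA6 and the same degron line at 0 h. The comparison rests on 4 of the 10 ATAC-seq libraries of the series, 2 titled as controls (AID_ctrl) and 2 titled as auxin (AID_aux), chosen by these labels. DLD-1 is an established human colorectal adenocarcinoma line. All 4 libraries have the genotype GATA6-AID-IAA7, in which GATA6 carries an auxin-inducible degron, so the control cells hold the tagged protein too. The AID_ctrl libraries carry the treatment label +Auxin beside a time of 0 h and were taken to be untreated. The AID_aux libraries are labelled +Auxin for 12 h, and the protocol gives 500 µM of the auxin indole-3-acetic acid (IAA). The protocol speaks of positive clones, and neither the number of clones nor whether replicates were separate cultures is given in the sources used here. P-values therefore measure the spread between these libraries, which may be technical. Each library came from 50000 viable cells by Omni-ATAC with paired reads of 150 nt.

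The other 6 libraries served as side readouts. They are 2 of the same line after auxin was washed out (AID_wash, time label 1 with no unit), 2 of unedited DLD-1 (WT) and 2 of DLD-1 with GATA6 knocked out by CRISPR/Cas9 (KO).

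GATA6 is a zinc-finger transcription factor that binds the core sequence GATA and can open compacted chromatin, and it is known for its part in endoderm formation and in keeping the identity of intestinal epithelium. An auxin-inducible degron is a plant-derived tag that brings a protein to a ubiquitin ligase when auxin is present, so that the protein is destroyed by the proteasome without any change to its gene. In ATAC-seq a transposase cuts open DNA, and a peak caller lists the places where cuts pile up, mostly promoters and enhancers. The assay does not measure GATA6 protein.

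The peaks of the 6 degron libraries on chromosomes 1 to 22 and X formed 120452 merged regions, of which 115431 were called (overlapped by at least 1 peak) in at least 1 of the 4 libraries and 68803 in all 4. The AID_ctrl lists held 190996 and 178935 peaks on these chromosomes and the AID_aux lists 198493 and 173167. They covered 69.3 and 65.6 Mb in AID_ctrl and 70.2 and 62.6 Mb in AID_aux. The 2 groups overlapped in the number of peaks, the length covered and the share of called regions near gene ends, and the exact two-sided permutation test gave p = 1 for each, where 2 libraries against 2 cannot give less than 0.333. Of 8 epithelial markers, 7 had a called region at a gene end in all 4 libraries, the exception being CDH17. Of 15 blood and immune markers 7 were called in all 4 and 6 in none. A called gene end was thus not limited to epithelial markers. The blood and immune markers called in AID_ctrl 1, AID_ctrl 2, AID_aux 1 and AID_aux 2 numbered 7, 7, 8 and 9. Of 15 fibroblast and endothelial markers 4 were called in all 4 libraries and 8 in none, with 4, 5, 5 and 6 called in the same order. The part of these small differences in the results was not tested.

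Within each library every region took its highest peak enrichment, the authors' fold over background, and was ranked by it over the 68803 shared regions. A percentile below is this rank, so that 100 is the most enriched region of the library. Across regions, the ranks of the 2 AID_ctrl libraries had a Spearman correlation of 0.871 and those of the 2 AID_aux libraries 0.868, and the 4 pairs between groups had 0.831 to 0.849. These correlations are over regions of the same genome and carry no test. The order of strength thus differed more between groups than within them, by a small margin.

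The regions that changed most lost accessibility. Limma on normal scores of the ranks called 18 regions lower with auxin and 0 higher (Benjamini-Hochberg adjusted p under 0.05), which is 0.0262% and 0% of the shared regions. At an unadjusted p under 0.05 limma gave 3248 lower (4.72%) and 2955 higher (4.29%), close to even. When the regions were ranked by the authors' −log10 p instead, limma called 622 lower (0.904%) and 52 higher (0.0756%), and all 18 were among the 622. The 18 rest on the full set of libraries: without AID_ctrl 1, AID_aux 1 or AID_aux 2, limma called 0 lower, and without AID_ctrl 2 it called 9. Counting every region called by at least 2 of the 4 libraries also gave 0.

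The size of the gap between groups showed the same direction without a test. Both AID_aux libraries lay below both AID_ctrl libraries in 12990 shared regions (18.9%) and above them in 13287 (19.3%). With a gap of at least 10 percentile points there were 3469 below (5.04%) and 3145 above (4.57%). With at least 25 percentile points the counts were 738 below (1.07%) and 379 above (0.551%). At 40 points they were 210 (0.305%) and 31 (0.0451%), and at 50 points 74 (0.108%) and 5 (0.00727%). Small shifts were thus as common upward as downward, and large shifts were mostly downward.

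**Figure D1:**
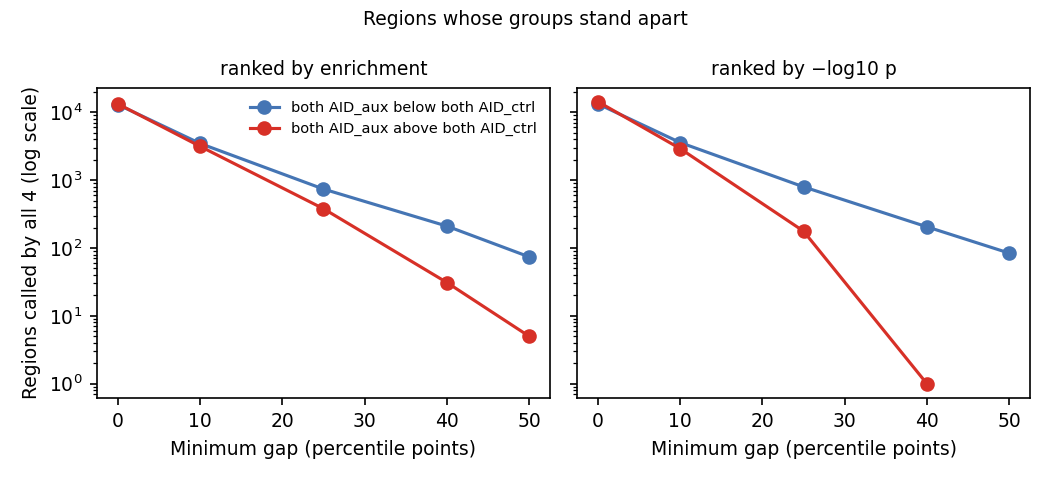
Number of shared regions (vertical axis, log scale) whose 2 AID_aux libraries both lie below (blue) or above (red) both AID_ctrl libraries by at least the gap on the horizontal axis (percentile points), ranked by enrichment (left) or by −log10 p (right); counts of 0 are not drawn. The lines start together and part as the gap grows, to 74 against 5 at 50 points on the left and 84 against 0 on the right.

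The 18 lower regions were among the strongest of the control cells and among the weak of the treated cells. They lay between percentiles 78.2 and 99.5 in AID_ctrl 1 and 77.1 and 99.1 in AID_ctrl 2, against 2.60 to 37.5 in AID_aux 1 and 4.47 to 24.4 in AID_aux 2. Their median enrichment was 15.1 and 14.8 in the 2 AID_ctrl libraries and 5.04 and 4.93 in the 2 AID_aux libraries. No AID_aux value of any of the 18 reached an AID_ctrl value of the same region. The test covered regions called in all 4 libraries, so each of the 18 has a call after auxin by construction. It also favours regions whose libraries agree within a group and stand apart between groups, so these traits follow from the choice.

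The region with the smallest p lay on chromosome 2 (111684803 to 111686132), 80764 bp from ANAPC1, which encodes a subunit of the anaphase-promoting complex. Its enrichment was 16.7 and 16.5 in AID_ctrl and 5.04 and 5.24 in AID_aux. In percentiles that is 98.5 and 98.0 against 14.3 and 19.4, a difference in normal score of −3.08 ± 0.26 (SE; limma adjusted p = 0.0221). A region on chromosome 8 (18248600 to 18249786), 25504 bp from NAT1, an arylamine N-acetyltransferase gene, went from enrichments of 15.0 and 15.1 to 4.37 and 4.37. Its percentiles were 95.7 and 95.3 in AID_ctrl and 8.70 and 10.2 in AID_aux. In each of these the 2 libraries of a group were close to each other and far from the other group, which the test selects for.

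A region inside PARD3, whose product organises tight junctions and apical polarity, lay on chromosome 10 (34212829 to 34214126). Its percentiles were 97.3 and 84.6 in AID_ctrl and 6.23 and 5.98 in AID_aux (difference −3.02 ± 0.34 SE, limma adjusted p = 0.0336). A region inside NECTIN1, an adherens junction gene, on chromosome 11 (119704332 to 119705362) stood at 91.0 and 96.3 in AID_ctrl and 19.1 and 21.7 in AID_aux. One inside CLSTN2, a gene of the cadherin family, on chromosome 3 (140536103 to 140537906) stood at 78.2 and 77.1 against 6.23 and 5.98 and had the largest adjusted p of the 18 (limma, 0.0458). In all 3 regions the AID_aux libraries lay close together and below both AID_ctrl libraries, which the test selects for. The regions inside PARD3 and CLSTN2 had the same weak enrichments in AID_aux, 4.03 and 3.93, and so tied ranks.

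The nearest protein-coding gene to a region on chromosome 4 (84536520 to 84537389) was NKX6-1, a homeobox factor of pancreatic endocrine cells, 37662 bp away, with percentiles of 99.1 and 95.6 in AID_ctrl and 17.4 and 24.4 in AID_aux. Inside PKNOX2, another homeobox gene, a region on chromosome 11 (125410529 to 125411989) stood at 90.5 and 93.7 against 15.2 and 17.3. Inside FTO, an RNA demethylase gene, a region on chromosome 16 (53792277 to 53793210) stood at 92.0 and 85.9 against 14.3 and 5.98. Near CAPRIN2, an RNA-binding protein gene, a region on chromosome 12 (30762890 to 30764037) went from 95.5 and 94.1 to 23.8 and 24.4. The assignment is to the nearest gene body within 100000 bp, and which gene a region acts on was not measured.

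A further 8 regions had limma adjusted p between 0.0318 and 0.0367. They lay inside STK10, EXOC6B and DNAH2, near VWA3B and C15orf39, and, on chromosomes 8, 10 and X, more than 100000 bp from any protein-coding gene. STK10 encodes a serine/threonine kinase, EXOC6B an exocyst subunit and DNAH2 a dynein of cilia. The lowest values of the 18 were those near C15orf39 on chromosome 15 (75180427 to 75181451), with percentiles of 2.60 and 4.47 in AID_aux against 82.0 and 86.4 in AID_ctrl.

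**Figure D2:**
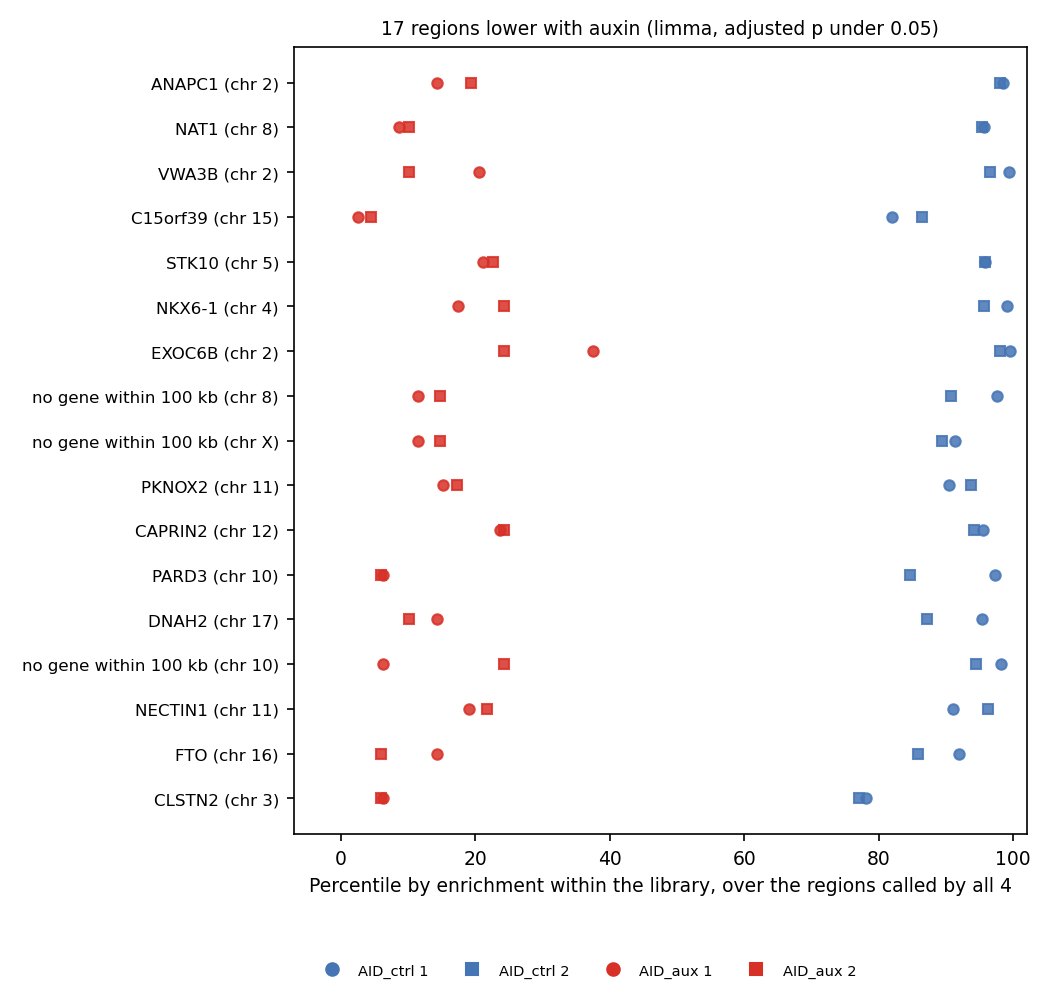
Percentile by enrichment (horizontal axis) of 17 of the 18 lower regions, named by nearest protein-coding gene, in AID_ctrl (blue) and AID_aux (red); circles are replicate 1 and squares replicate 2. Every red point lies at or below 37.5 and every blue point at or above 77.1.

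No region passed the test upward with ranks by enrichment, and regions with the smallest p are given as values. One inside MYO1D, an unconventional myosin gene, on chromosome 17 (32536335 to 32537612) stood at percentiles 13.6 and 10.5 in AID_ctrl and 71.5 and 77.8 in AID_aux (limma adjusted p = 0.092, and 0.0244 with ranks by −log10 p). A region at the promoter of NLRP3, an inflammasome sensor gene, on chromosome 1 (247415277 to 247416139) stood at 9.99 and 14.6 against 66.6 and 78.1, and its limma adjusted p was 0.113 by enrichment and 0.0304 by −log10 p. Others lay near TTLL1 and VEPH1 and inside RCC1, the last among the weakest regions of all 4 libraries at a percentile of at most 0.668. The groups of each of these regions did not overlap, in the same way as in 19.3% of all shared regions.

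With ranks by −log10 p, regions called higher included one 2142 bp from SNAI2, a repressor of epithelial genes, on chromosome 8 (48923001 to 48924142). It was strong in all 4 libraries, with percentiles by enrichment of 93.1 and 91.3 in AID_ctrl and 99.9 and 99.9 in AID_aux (limma adjusted p = 0.0158 by −log10 p and 0.197 by enrichment). A region inside RUNX1, a blood and epithelial transcription factor gene, on chromosome 21 (34986616 to 34987966) stood at 50.9 and 33.6 against 80.2 and 81.0 (limma adjusted p = 0.0258 by −log10 p). At the promoter of TMX1, a thioredoxin of the endoplasmic reticulum, the percentiles were 81.2 and 74.0 against 99.0 and 99.3 (limma adjusted p = 0.019 by −log10 p).

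Calls that disappeared were described next, since a region with no call has no enrichment to rank. Both AID_ctrl libraries and neither AID_aux library called 2729 regions (lost), 3.54% of those both AID_ctrl libraries called, and 2974 were gained in the reverse case, 3.82% of those both AID_aux libraries called. Most of these were weak. Regions in the upper 50% of each calling library's called regions by enrichment are named strong. By that measure 159 of 38396 strong control regions were lost (0.414%), and 16 of 39165 strong AID_aux regions were gained (0.0409%). By the lower percentile of the 2 calling libraries, the first lost region under the cut stood at 49.9, and 41 lost regions lay between 50 and 55 and 66 between 45 and 50. The 2 directions were near even over all calls and uneven among strong ones. Without AID_aux 2 the strong counts were closer, 229 lost and 174 gained.

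From percentile 10 upward the share lost fell with strength, and the share gained fell faster. In the decile from 10 to 20 of the called regions, 970 were lost (12.6%) and 1422 gained (17.0%). From 40 to 50 there were 165 lost (1.90%) and 62 gained (0.751%), and from 60 to 70 there were 43 (0.514%) and 3 (0.0353%). Above 70 there were 18, 14 and 4 lost in the 3 deciles and 0 gained in each. By this lower percentile no gained region was as strong as the 36 strongest lost regions.

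**Figure D3:**
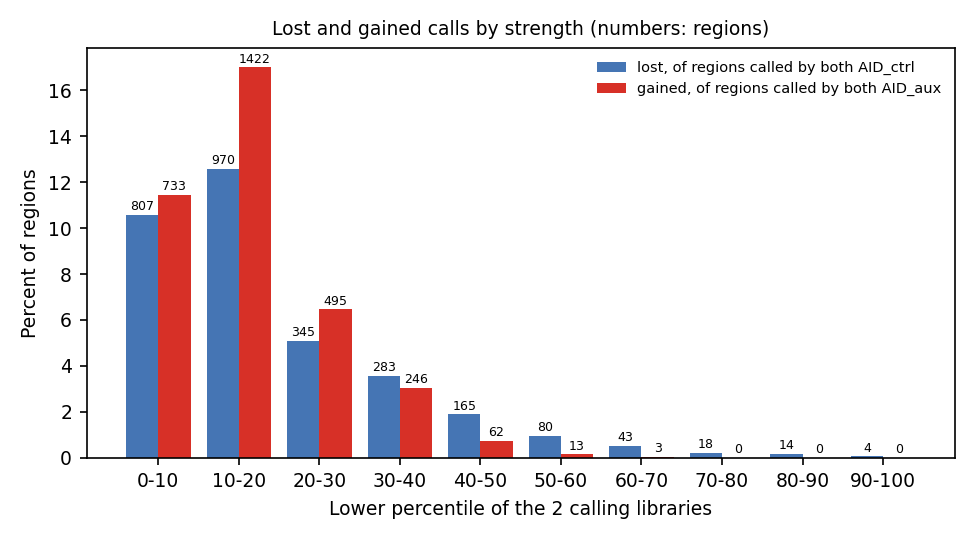
Percent of regions lost (blue, of regions called by both AID_ctrl) or gained (red, of regions called by both AID_aux) by decile of the lower percentile of the 2 calling libraries among their called regions; numbers over bars are regions. Gains exceed losses below 30 and losses exceed gains from 30 upward.

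More strong control regions lacked a call in 1 treated library than in both. Of the strong control regions 37904 (98.7%) were called by both AID_aux libraries, 333 (0.867%) by 1 and 159 by neither. The missing calls were uneven, with 422 strong control regions not called in AID_aux 2 and 229 not called in AID_aux 1. AID_aux 2 also had the shorter list, 173167 peaks against 198493, and the part of list length was not tested. Of the strong AID_aux regions 38977 (99.5%) were called by both AID_ctrl libraries, 172 (0.439%) by 1 and 16 by neither.

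The 12 most enriched lost regions stood high in both control libraries, between percentiles 85.7 and 95.3 of the called regions in AID_ctrl 1 and between 83.7 and 96.9 in AID_ctrl 2. The first lay inside CACNA2D3, a calcium channel subunit gene, on chromosome 3 (54801689 to 54802512). It had enrichments of 14.4 and 15.4 in AID_ctrl and no peak in either AID_aux library, and stood at percentiles 92.9 and 93.9 of the called regions after washout. A region inside SOS1, whose product loads RAS with GTP, on chromosome 2 (39032200 to 39033183) had enrichments of 12.8 and 14.1 in AID_ctrl. One inside YAP1, a coactivator that Hippo signalling holds in check, on chromosome 11 (102191727 to 102193224) had 12.0 and 11.7. All 3 sites went from among the stronger calls of the control cells to no call after 12 h.

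The other 9 of these included regions inside MACROD2, an ADP-ribose hydrolase gene, ZNF674, a zinc-finger gene, SLC24A2, an ion exchanger gene, and the read-through gene RNF103-CHMP3. One lay 30812 bp from LBH, a transcription cofactor gene, and one 60078 bp from FIG4, a lipid phosphatase gene. On chromosomes 4, 5 and 8 there were 3 with no protein-coding gene within 100000 bp. Genes with more than 1 strong lost region were ENTREP2, KCNQ5, a potassium channel gene, and SLC9A7, a sodium-proton exchanger gene, with 2 each. The 2 at ENTREP2 were 67 bp apart on chromosome 15 (29595473 to 29595848 and 29595916 to 29596702) and are counted as 2.

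**Figure D4:**
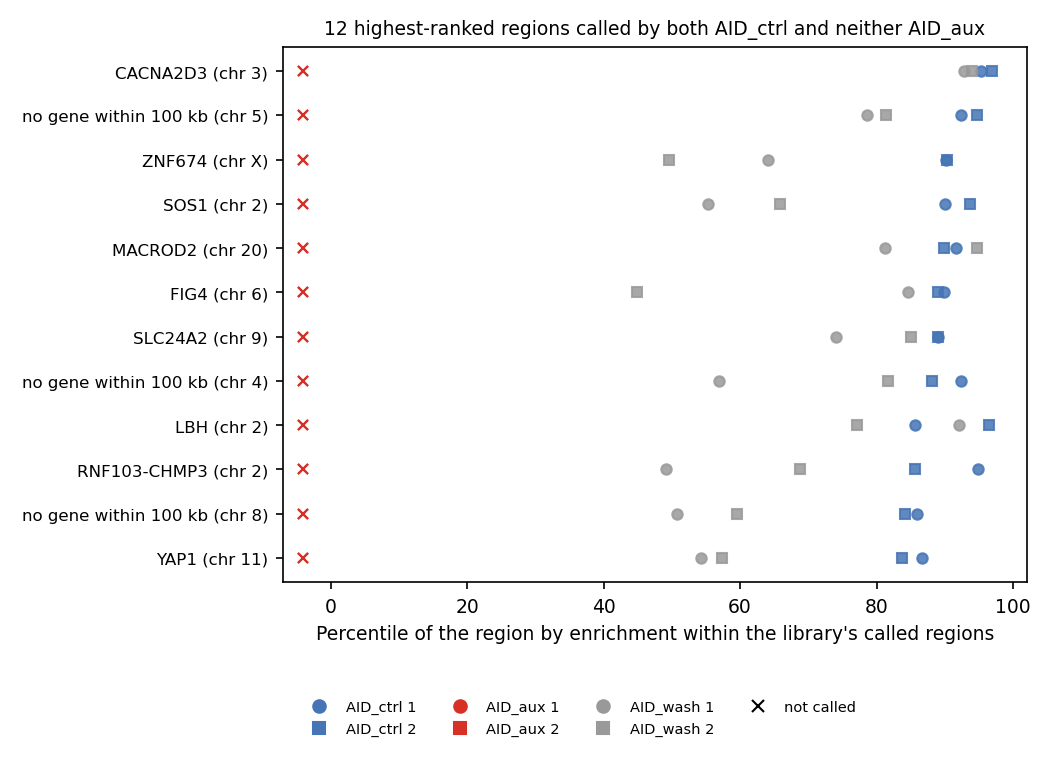
Percentile by enrichment among each library's own called regions (horizontal axis) for the 12 most enriched strong lost regions, named by nearest protein-coding gene, in AID_ctrl (blue), AID_aux (red) and AID_wash (grey); circles are replicate 1, squares replicate 2 and crosses mark no call. Blue points lie between 83.7 and 96.9, both AID_aux libraries have no call in any row, and grey points lie between 44.9 and 94.8.

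The 16 strong gained regions were less enriched than these. The 6 highest included regions 26313 bp from NPY1R, a neuropeptide Y receptor gene, inside TMEM233, and 3996 bp from LAMA4, a laminin gene. That near NPY1R stood at percentiles 66.6 and 63.4 of the called regions in AID_aux, and that near LAMA4 at 83.9 and 57.3.

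Lost and lower regions lay away from gene ends, and so did gained ones. No more than 1000 bp from where a protein-coding gene begins or ends lay 2 of the 159 strong lost regions (1.26%, Wilson 95% interval 0.346 to 4.47) against 22.7% of all strong control regions. None of the 18 lower regions did (0 of 18, which allows up to 16.7%), against 19.0% of the shared regions. With ranks by −log10 p, 21 of the 622 lower regions did (3.38%, interval 2.22 to 5.11) and 3 of the 52 higher ones (5.77%, interval 1.98 to 15.6). Of all lost regions 4.10% did and of all gained regions 4.71%, and of the 16 strong gained regions 1 did (6.25%). Intervals and limits here cover counting error only. More than 100000 bp from any protein-coding gene lay 36 strong lost regions (22.6%, interval 16.8 to 29.7) against 10.5% of strong control regions. The share inside gene bodies was 50.3% and 54.0%, within the interval of 42.6 to 58.0. Strong lost regions were narrower, with a median width of 979 bp against 1242 bp. Widths are of merged regions, and a lost region has no AID_aux interval to widen it. The difference can therefore not be read as a trait of lost sites. Distal sites, not gene ends, thus made up nearly all of the strong losses, and each of the 4 libraries ranked gene ends above other shared regions to a like degree, with median percentiles of 57.4 to 60.2 against 47.5 to 48.3.

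Promoters were described in the RefSeq windows of GRCh38.p14 that run from 250 bases before to 50 after a gene's start. One strong lost region, that at KIF7, touched such a window, against 18.6% of strong control regions, and none of the 18 did. KIF7 encodes a kinesin of the primary cilium that acts in hedgehog signalling. Its region on chromosome 15 (89655545 to 89656870) stood at percentiles 67.3 and 78.7 of the called regions in AID_ctrl, was not called in AID_aux and stood at 47.1 and 47.1 after washout. The lower promoter regions nearest to the threshold were at SPINK4, NSUN6, DNAJC15, PLAC1, ANKRD44 and ADD3, with no call by enrichment. By −log10 p, limma called the promoter regions of SPINK4, ANKRD44, TMPRSS11F, DUSP7 and ADD3 lower and those of TMX1 and NLRP3 higher.

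At SPINK4, a peptidase inhibitor gene of goblet cells, the region on chromosome 9 (33239681 to 33240904) had enrichments of 9.79 and 9.87 in AID_ctrl and 3.96 and 4.68 in AID_aux. In percentiles it stood at 65.2 and 65.4 against 5.49 and 13.0 (difference −1.76 ± 0.30 SE, limma adjusted p = 0.123 by enrichment and 0.00202 by −log10 p). Among its library's called regions it stood at 69.3 and 73.6 after washout, and it was called in both WT and neither KO library. The ADD3 promoter, of an adducin of the membrane skeleton, went from 51.0 and 57.0 to 15.0 and 20.9 (limma adjusted p = 0.0292 by −log10 p). TMPRSS11F, a membrane serine protease gene, had 99.0 and 92.0 against 84.9 and 65.8 (limma adjusted p = 0.00936 by −log10 p).

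Short words around the GATA core were searched on both strands of these windows. The first was AGATAA, and a variant of it, AGATAG, ends in another base. The others, TGATAA and its variant TGATAG, start with another base. The windows of 5 promoters are printed on the gene's strand, 3 of the 5 called lower by −log10 p (those that hold a word), the 1 strong lost and 1 of the 2 called higher by −log10 p, with GATA words in capitals. They are chr9:33239917-33240216 (plus strand) for SPINK4, chr10:109996123-109996422 (plus) for ADD3, chr4:68129820-68130119 (minus) for TMPRSS11F, chr15:89655418-89655717 (minus) for KIF7 and chr1:247415923-247416222 (plus) for NLRP3, from RefSeq.
SPINK4: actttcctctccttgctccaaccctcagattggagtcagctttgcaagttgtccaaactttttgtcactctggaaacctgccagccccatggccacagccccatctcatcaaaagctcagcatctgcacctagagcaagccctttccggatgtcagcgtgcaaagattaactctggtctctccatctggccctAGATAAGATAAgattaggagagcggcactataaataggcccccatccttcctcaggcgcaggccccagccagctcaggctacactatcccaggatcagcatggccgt
ADD3: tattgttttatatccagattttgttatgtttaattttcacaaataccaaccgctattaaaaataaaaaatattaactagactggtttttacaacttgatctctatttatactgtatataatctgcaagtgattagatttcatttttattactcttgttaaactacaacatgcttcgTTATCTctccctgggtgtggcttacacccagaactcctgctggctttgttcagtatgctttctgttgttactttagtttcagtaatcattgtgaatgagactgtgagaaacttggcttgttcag
TMPRSS11F: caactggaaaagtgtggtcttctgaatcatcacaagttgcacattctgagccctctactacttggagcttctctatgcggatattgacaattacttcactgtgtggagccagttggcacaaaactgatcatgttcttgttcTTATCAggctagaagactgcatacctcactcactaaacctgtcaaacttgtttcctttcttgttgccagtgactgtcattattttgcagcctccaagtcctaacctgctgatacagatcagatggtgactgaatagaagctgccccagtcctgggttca
KIF7: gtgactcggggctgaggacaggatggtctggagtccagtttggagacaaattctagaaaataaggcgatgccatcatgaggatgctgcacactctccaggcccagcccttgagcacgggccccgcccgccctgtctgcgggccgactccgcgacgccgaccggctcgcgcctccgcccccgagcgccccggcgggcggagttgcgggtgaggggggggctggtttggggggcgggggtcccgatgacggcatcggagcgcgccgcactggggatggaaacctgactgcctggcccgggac
NLRP3: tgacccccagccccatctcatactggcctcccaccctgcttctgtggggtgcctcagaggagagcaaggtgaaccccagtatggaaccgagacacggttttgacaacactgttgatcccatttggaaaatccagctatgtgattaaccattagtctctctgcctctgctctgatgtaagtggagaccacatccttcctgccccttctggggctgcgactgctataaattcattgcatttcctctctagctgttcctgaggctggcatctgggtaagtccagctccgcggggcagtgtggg
SPINK4 holds AGATAA in 2 overlapping copies, ADD3 holds 1 AGATAA and TMPRSS11F 1 TGATAA, both on the other strand and so printed reversed and complemented, and KIF7 and NLRP3 hold none of the words. The other 2 promoters called lower by −log10 p, ANKRD44 and DUSP7, and the other called higher, TMX1, hold none either. At least 1 word was in 20.0% of all 22132 promoter windows and in 15.5% of the 14851 touched by a shared region. It was in 24 of 57 windows touched by a lost region (42.1%) and in 14 of 66 touched by a gained one (21.2%). Only 28 lost, 32 gained and 9573 shared regions touched a window. Windows thus outnumber regions, 1 region can count more than once, and the windows are not independent. Base composition moved with the share of windows holding a word. Median GC was 54.0% in the lost and 55.5% in the gained windows against 64.7% in the shared ones, and its part was not tested. A word is a match of letters and not a measured site.

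Gene lists were read by counts, beside 4.72% lower and 4.29% higher at an unadjusted p under 0.05 and a median percentile difference of 0.17 over all shared regions. With ranks by −log10 p the background was 0.904% called lower and 0.0756% higher, and for strong losses 0.414%. Among GATA and endoderm factors, 151 regions gave 0 calls by enrichment, 10 lower and 7 higher unadjusted (limma) and a median of 0.37. By −log10 p limma called 2 of them lower. One lay 13853 bp from KLF5, an epithelial transcription factor gene, on chromosome 13 (73040500 to 73041747), with percentiles by enrichment of 71.7 and 66.3 in AID_ctrl and 35.3 and 69.2 in AID_aux, so that the groups overlapped on that scale (limma adjusted p = 0.776 by enrichment and 0.0459 by −log10 p). Near CDX2, the master regulator of intestinal identity, the region with the smallest p had enrichments of 5.38 and 4.63 in AID_ctrl and 8.53 and 7.62 in AID_aux and did not pass either test.

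At GATA6 itself, 35 regions were assigned and 15 were in the fit, with none called (smallest limma adjusted p 0.688 by enrichment and 0.274 by −log10 p). The region at the gene's start, on chromosome 18 (22168382 to 22170579), stood at percentiles 8.26 and 16.5 in AID_ctrl and 14.9 and 12.1 in AID_aux. A region 21312 bp from the gene (22223360 to 22224320) stood at 97.3 and 99.7 against 99.7 and 99.9. One 48189 bp away (22250090 to 22251344) stood at 99.2 and 99.7 against 98.3 and 98.5. The 2 groups overlapped at the start, and these 2 sites were near the top of all 4 libraries. Another strong control region, 63007 bp from the gene (22106042 to 22107122), stood at percentiles 66.4 and 77.4 of the called regions in AID_ctrl and 38.7 in AID_aux 1, had no call in AID_aux 2 and so was not in the fit. After washout it stood at 69.3 and 58.0.

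WNT and intestinal stem cell genes had 173 regions with 7 lower and 8 higher unadjusted and a median of −0.08, with 0 of 74 strong control regions lost. By −log10 p limma called 3 lower, 2 inside SMOC2, a matricellular protein gene of stem cells, and 1 near NKD1, a WNT antagonist gene. The SMOC2 region on chromosome 6 (168596444 to 168598126) had enrichments of 14.0 and 15.2 in AID_ctrl and 6.05 and 7.43 in AID_aux. Its percentiles were 92.8 and 95.6 against 23.8 and 43.0, with a limma adjusted p of 0.0803 by enrichment and 0.000744 by −log10 p. After washout it stood at 93.4 and 94.5 of the called regions. The NKD1 region (chromosome 16, 50473442 to 50474732) stood at 79.6 and 84.7 against 25.7 and 31.3 (limma adjusted p = 0.0102 by −log10 p).

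Hippo and YAP genes had 106 regions, 3 lower and 2 higher unadjusted, a median of −0.34 and 1 strong lost region of 43, the one inside YAP1. BMP and TGF-beta genes had 191 regions, 4 lower and 14 higher unadjusted, the latter 7.33%, and a median of 1.33. By −log10 p limma called 1 lower, at BMP2, a ligand gene, and 1 of 74 strong regions was lost, inside BMPR2, a receptor gene. EGFR and RAS genes had 167 regions, 5 lower and 4 higher unadjusted, a median of 0.24 and 1 called lower by −log10 p, inside TGFA, a ligand gene. None of these 3 lists held a region called by enrichment.

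Among lists of intestinal lineages, enterocyte genes had 42 regions (2 lower and 2 higher unadjusted, median 3.58) and enteroendocrine genes 28 (0 and 0, median −0.76). Goblet genes had 39 regions (1 lower and 3 higher, median 1.32), and SPINK4 was the 1 called lower by −log10 p. No strong control region of the 3 lists was lost, out of 22, 12 and 20, numbers too small to show a share like the 0.414% of all strong control regions. Epithelial junction genes had 153 regions, with 11 lower and 7 higher unadjusted and a median of −0.00. That list held the 1 region of any list called by enrichment, the one inside PARD3, and by −log10 p also 1 near CDH17, an intestinal cadherin gene. Mesenchymal transition genes had 70 regions, 4 lower and 7 higher unadjusted and a median of −0.02, with SNAI2 called higher by −log10 p and 1 of 46 strong regions lost, 11519 bp from VIM, the vimentin gene.

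Other lists served as contrast. AP-1 genes had 52 regions (1 lower and 2 higher unadjusted, median 0.19) and 1 of 25 strong regions lost, near FOSL2, a FOS-family gene. Chromatin looping genes had 55 (4 and 3, median 0.01), with NIPBL, the cohesin loader gene, and PDS5B, a cohesin regulator gene, called lower by −log10 p and 1 of 36 strong regions lost inside STAG1, a cohesin subunit gene. Aryl hydrocarbon receptor genes had 58 (4 and 3, median 1.28), with AHR called lower by −log10 p. Housekeeping genes had 59 (1 and 2, median 1.16), blood and immune markers 66 (2 and 3, median 2.42, PTPRC lower and RUNX1 higher by −log10 p) and fibroblast and endothelial markers 71 (2 and 4, median −0.17). No list held a strong gained region. Counts of 1 to 3 calls in lists of these sizes are too small to set a list apart from that background.

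Regions beside the lost ones shifted little. For each strong lost region the nearest shared region, at a median distance of 15360 bp, differed by a median of −1.78 percentile points (quartiles −8.13 and 8.36), and 89 of 159 (56.0%) were below 0, where 49.0% of all shared regions were. Of these neighbours 1 was itself called lower. For the 18 lower regions the neighbours, at a median of 12654 bp, differed by −3.51, with 11 of 18 below 0 and 0 called. By chromosome, the share of strong control regions lost ran from 0% on chromosome 21 to 0.584% on chromosome 6 among the autosomes and was 0.928% on X (8 of 862).

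Calls after washout were read beside those of all regions. All 18 lower regions were called by both AID_wash libraries, as were 62170 of the 68803 shared regions. The 18 had median percentiles of 87.0 and 96.3 among the called regions of AID_wash, where the AID_ctrl libraries had 96.8 and 95.5 and the AID_aux libraries 31.1 and 26.6 on the same scale. Of the 159 strong lost regions 150 and 153 were called by the 2 AID_wash libraries, 147 by both and 3 by neither. These shares of 94.3% and 96.2% lie below the 98.9% and 99.9% of all strong control regions, of which 15 of 38396 were called by neither. Their median percentiles were 49.2 and 59.0, against 67.8 and 64.9 in AID_ctrl. Because the calls in AID_ctrl chose these regions, a somewhat lower rank elsewhere cannot be read as incomplete return. The AID_aux libraries chose the lost and lower regions too, by missing calls or low ranks. A call or a higher rank after washout is thus partly set by that choice and cannot by itself be read as return.

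WT and KO libraries share no sample with the comparison and were used through their calls alone. Of the 77 strong lost regions that both WT libraries called, 47 had no call in either KO library (61.0%, Wilson 95% interval 49.9 to 71.2), against 234 of 32888 strong control regions (0.712%). Of all 159 strong lost regions, 21 had no call in either WT library and 17 had none in WT or KO. WT 2 called 49.7% of the 159, against 85.8% of strong control regions. Of the 16 lower regions called in both WT libraries, 8 had none (interval 28.0 to 72.0%), against 0.566% of the shared regions. These 8 are the regions near ANAPC1 and NAT1, inside STK10, PKNOX2, FTO and CLSTN2, and those on chromosomes 8 and 10 with no gene nearby. The regions near VWA3B, C15orf39 and CAPRIN2 and inside EXOC6B were called in both KO libraries. Of the 622 regions called lower by −log10 p, 57 of 561 had none (10.2%, interval 7.93 to 12.9). Among all lost regions the share was 215 of 447 (48.1%, interval 43.5 to 52.7), and among gained regions 9 of 243 (3.70%, interval 1.96 to 6.89). Sites weakened or lost at 12 h thus had no call in the knockout more often than strong control or shared sites, and many of them still had a call there. The intervals cover counting of regions only, not the spread between libraries, and the sets were not matched for strength or position. Gained regions, at 3.70%, also stood above the 0.566% of shared regions.

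**Figure D5:**
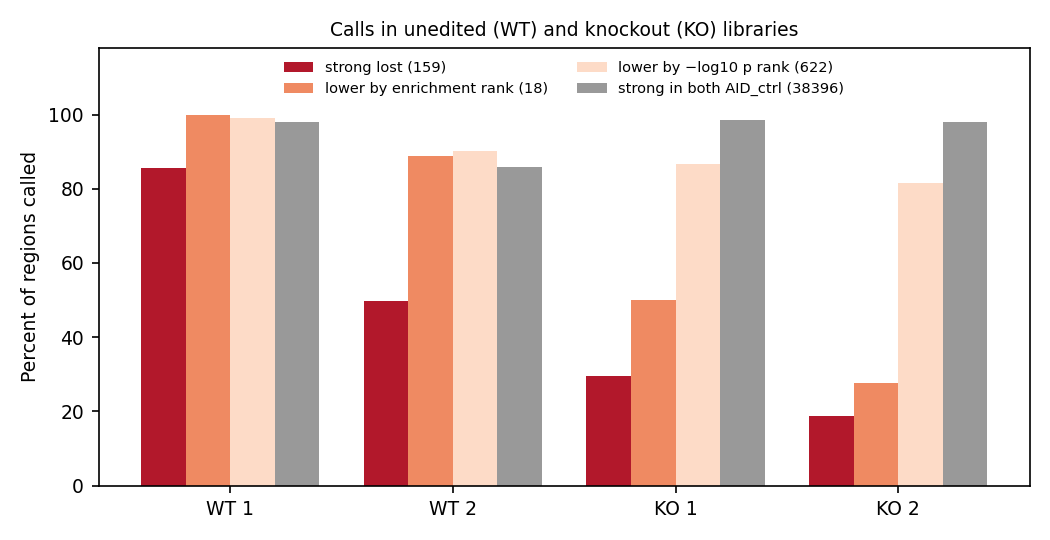
Percent of regions called (vertical axis) in each WT and KO library, for the strong lost regions, the lower regions by enrichment rank, the lower regions by −log10 p rank and all strong regions of AID_ctrl (number of regions in brackets). In KO 1 and KO 2 the strong lost regions are called at 29.6% and 18.9% and all strong regions of AID_ctrl at 98.5% and 97.9%. In WT 1 and WT 2 the strong lost regions are called at 85.5% and 49.7%, against 98.1% and 85.8%.

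The gained side was compared in the same way. Of the 1949 gained regions that neither WT library called, 1102 were called by both KO libraries (56.5%, interval 54.3 to 58.7). The same share was 27.5% of 1475 lost regions (interval 25.3 to 29.9) and 41.4% of all 42902 merged regions without a WT call. Among the 6440 shared regions without a WT call it was 76.8%, above the share of gained regions. Of the 52 regions called higher by −log10 p, all were called by both KO libraries, as were 65784 of the 68803 shared regions, and 42 by both WT libraries, as were 46988 of the shared regions. The WT and KO lists hold coordinates only, so strength in the knockout was not compared.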

How the data were processed

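Peaks came in 1 list per library, made by the authors from reads processed with Trim Galore 0.6.10, Bowtie2 2.4.2, Picard and MACS2 2.1.1 on hg38, per the submitters' processing notes, with parameters not given in the sources used here. Each deposited degron list gives summits with their intervals, a score, a fold enrichment ratio, a −log10 p and a −log10 q, all the authors' own values within a library; the smallest deposited −log10 p was 5.00 in each. The deposited WT and KO lists give coordinates only. The values were used only as ranks within a library. Read depth is unknown.

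Intervals on chromosomes 1 to 22 and X were merged over the 6 degron lists where they overlapped or touched. Ranks of the 68803 regions called by all 4 libraries became normal scores and were tested with limma 3.58.1 (R 4.3.3, empirical Bayes with trend, no covariate, Benjamini-Hochberg threshold 0.05), a script tested on simulated data. Genes came from RefSeq (GRCh38.p14), without strand or exons, so exon and intron were not told apart. Named were the regions with the smallest p in each direction, the most enriched 12 strong lost and 6 strong gained, the smallest p per list and direction, the GATA6 regions and the promoter regions nearest to the threshold; regions named by −log10 p ranks, the remaining lower regions and strong lost regions at list genes were added after their values were seen. The regions, 16 gene lists (252 genes, all matched) and rules were chosen with earlier results of these data known. Alternatives were other ranks, scalings, filters, overlaps, a replicate block and leaving out each library. Results for some genes are not reported here.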

Additional observations from a re-analysis of the deposited data

How the results depend on the processing

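The count of 18 lower regions was 18 with median-centred log2 enrichment or merging over 4 libraries and 17 after quantile normalization. It was 622 ranked by −log10 p, 51 with all 6 degron libraries, 8 with a −log10 q of at least 5, 4 when peaks had to cover 50% of a region and 0 over regions called by at least 2 of the 4. Leaving out 1 library gave 0 to 9. Ranked by −log10 p, it gave 535 and 367 without AID_ctrl 1 and 2, and 509 and 672 without AID_aux 1 and 2. For higher regions the count of 0 became 52 ranked by −log10 p, and then 295 and 94 without AID_ctrl 1 and 2, and 20 and 42 without AID_aux 1 and 2. Same-numbered libraries did not deviate together (r = 0.00768 over regions). Whether the numbers pair the libraries cannot be read from this 1 value. With a replicate block limma called 66 lower and 2 higher, and 1110 and 286 ranked by −log10 p.

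The 159 strong lost and 16 strong gained regions were 90 and 0 ranked by −log10 p, 36 and 0 in the upper 30%, 607 and 324 in the upper 70% and 754 and 272 with 50% cover. Leaving out 1 library raised both counts, since fewer libraries then had to match. They were 290 and 114 without AID_ctrl 1, 322 and 90 without AID_ctrl 2, and 422 and 69 without AID_aux 1. Without AID_aux 2 they were 229 and 174, the least uneven of these pairs. Of the 159, 67 were kept by −log10 p, and all 12 most enriched were kept under each of these settings. For the 12, the upper 30%, the upper 70% and leaving out 1 library could not have given another outcome. Lost calls were 4496 with 50% cover and 3965 to 7929 without 1 library. Gained calls were 1915 with a −log10 q of at least 5 and 5621 to 11585 without 1 library. Without AID_aux 2 there were 3965 lost and 11585 gained calls. The share of strong lost regions near a gene end was 3.77% within 3000 bp and 1.24 to 2.37% without 1 library. Regions not called that changed sign were those at RCC1 (−0.00054) and FOSL2 (−0.0043055) over regions called by at least 2 of the 4, and at KLF5 without AID_aux replicate 1 (0.004232, and −0.83316 without AID_aux replicate 2). The causes of these moves were not tested. The lists hold no read counts, so a missing call cannot be told from shallow sequencing at a site.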

Other observations

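Regions at 1 gene were at times called lower more than once when ranked by −log10 p. HECW2, a ubiquitin ligase gene, had 4 of its 14 shared regions called lower by limma, and APOA4, an intestinal apolipoprotein gene, 2 of 2, where 0.904% of shared regions were called. Both genes were named after their counts were seen.

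A stretch of 3.56 Mb on chromosome X (43217917 to 46779183), chosen after its values were seen, held 6 of the 8 strong lost regions of X among 43 strong control regions, and 1 of the 18 lower regions. The rest of X had 2 lost of 819. The other signal in the stretch did not shift as a whole: its 78 shared regions had a median difference of 0.25 percentile points, and 39 of them were below 0. Strong lost regions there lay inside ZNF674, a zinc-finger gene, and at SLC9A7, the 2 at SLC9A7 being 114202 bp apart. Whether these sites belong to 1 regulatory domain was not tested.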
